A study of Homo sapiens with 24 samples.

Results

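MCF10A is a non-tumorigenic human breast epithelial cell line, and the lines compared here are its MYC-transformed derivative PM and its non-transformed counterpart PE, while the chromatin remodeller CHD1 was depleted with hairpin B. The 8 libraries of that comparison, 4 of PM with hairpin B and 4 of PE with hairpin B, were taken by their labels out of 24 in the series. The other 16 were 4 each of PM and PE with hairpin A against CHD1 and 4 each of PM and PE with a control hairpin against GFP. All 24 cultures had been given doxycycline at 50 ng/ml for 72 h, in a medium with horse serum, EGF, hydrocortisone, cholera toxin and insulin, so no group was free of doxycycline or of a hairpin. Polyadenylated RNA was sequenced, and the labels call the libraries of a group biological replicates without saying whether these were separate cultures, and every p below therefore rests on library-to-library spread that may be only technical. How the MYC gene was introduced into PM, and whether either line is 1 clone, is not given in the sources used here.

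MYC is a transcription factor that, bound with its partner MAX to E-box sequences, raises the transcription of genes for ribosome production, nucleotide synthesis and mitochondrial function. CHD1 is an ATP-dependent remodeller that spaces nucleosomes on transcribed genes and binds the trimethylated histone H3 lysine 4 found at active promoters. In breast epithelium, E-cadherin junctions, desmosomes and basal keratins hold cells together, and mesenchymal genes such as fibronectin mark cells that have loosened these contacts.

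The 24 libraries held 4142862 to 93299393 counts, and the 8 with hairpin B held 21234925 to 78736060 counts. PM replicate 3 with hairpin B stood apart in breadth: 33137 genes had a count in it, against 21732 to 24764 in the other 7. It held 8504 genes that no other library of its group detected, against 464 to 1171 in the other 3, and those genes took 0.0843% of its counts. The library with the lowest total was PE replicate 1 with the GFP hairpin. Epithelial markers were uneven between the lines. KRT7, a simple-type keratin, was at 2019 ± 184 CPM in PM and 1925 ± 182 CPM in PE with hairpin B. These are means ± SD (n = 4 each), and CPM are counts relative to the library total, after TMM scaling. Of 11 epithelial markers tested, 5 were higher in PM and 2 lower. CDH1, E-cadherin, had 6072 counts in PM and 51 in PE, and EPCAM had 21139 counts in PM and 2005 in PE. TP63, a defining factor of basal cells, was at 0.121 CPM in PM and 0.018 CPM in PE, so this basal marker was near 0 in both lines.

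CHD1 was low in both lines with hairpin B and did not pass the test of a difference between them. Its levels with hairpin B were 33.8, 28.6, 22.2 and 33.3 CPM in PM, against 29.8, 28.7, 23.6 and 30.2 CPM in PE, and the groups overlapped. The log2 difference, PM over PE, was 0.07 ± 0.10 (SE; adjusted p = 0.67, edgeR quasi-likelihood test with Benjamini-Hochberg adjustment, used for all adjusted p below), and an exact permutation test of the 2 groups of 4 gave p = 0.629 (two-sided). With the GFP hairpin CHD1 averaged 90.0 CPM in PM and 78.8 CPM in PE. Each line's hairpin B libraries lay below all 4 of its GFP libraries, with an exact permutation p of 0.0286, the smallest that 4 against 4 allows. CHD1 lies at chr5:98853985-98929007 (GRCh38.p14), and the files do not show which part of the transcript hairpin B targets.

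MYC mRNA stayed higher in PM, but by less than with the other hairpins. With hairpin B it was at 386, 399, 378 and 406 CPM in PM, against 297, 248, 261 and 292 CPM in PE. The groups did not overlap, the log2 difference was 0.51 ± 0.06 (adjusted p = 3.2e-08), and the exact permutation p was 0.0286. The log2 difference between PM and PE was 0.91 with the GFP hairpin and 1.13 with hairpin A, and it was lower under hairpin B than under either (log2 difference of -0.40, adjusted p = 0.0055, against GFP; -0.62, adjusted p = 1.1e-05, against hairpin A). The gap narrowed on the PM side: MYC averaged 392 CPM in PM with hairpin B and 518 CPM in PM with the GFP hairpin, while PE averaged 275 CPM with either hairpin. Counts over MYC (chr8:127735434-127742951) cannot separate the cell's own transcript from an introduced copy. Among the other 12 genes of the MYC and MAX network, of which 11 were tested, MXD3, a MAX partner that opposes MYC, was lower in PM (10.0 CPM, against 17.7 CPM in PE; log2 -0.82). MAX, at 34.9 CPM in PM and 30.7 CPM in PE, had a log2 difference of 0.18 (adjusted p = 0.18).

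**Figure D1:**
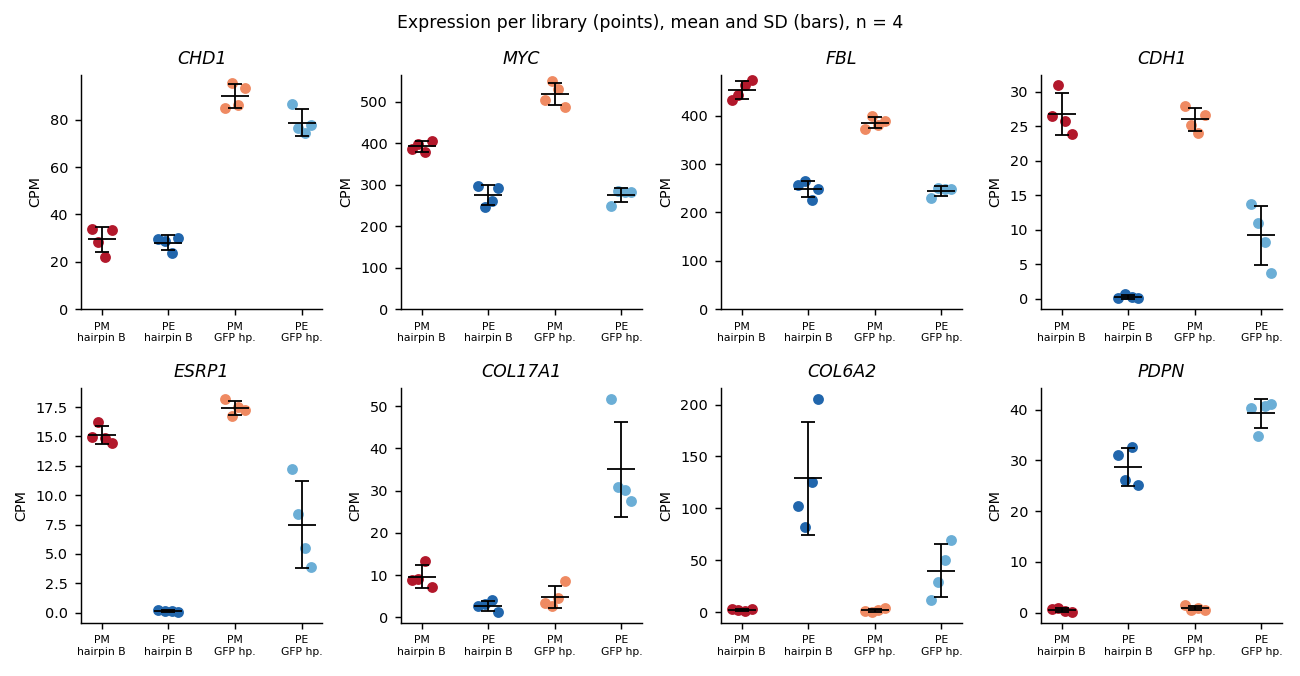
Levels of 8 genes in each library (points, CPM on a linear axis) with the mean and SD of 4 libraries (bars), for PM and PE with hairpin B and PM and PE with the GFP hairpin ("hp."). CHD1 is low in both lines with hairpin B; CDH1 and ESRP1 are near 0 in PE with hairpin B and not in PE with the GFP hairpin.

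Over all genes, PM and PE with hairpin B differed widely. Of 20820 genes tested, 6274 (30.1%) passed an adjusted p of 0.05: 3264 (15.7%) were higher in PM and 3010 (14.5%) lower. The same contrast with the GFP hairpin called 5309 (25.5%), of which 2944 (14.1%) were higher and 2365 (11.4%) lower, and with hairpin A 8309 (39.9%), of which 4194 (20.1%) were higher and 4115 (19.8%) lower. These 3 contrasts share no library. Of the genes called under hairpin B, 3756 were called in the same direction with the GFP hairpin, which is 59.9% of the hairpin B list and 70.7% of the GFP list, and 47 in the opposite direction. With hairpin A 5088 were called the same way, 81.1% of the hairpin B list and 61.2% of the hairpin A list, and 40 the opposite way. The difference between hairpins was also past 0.05 for all 47 and all 40 of these genes. That follows nearly from choosing genes called in opposite directions in the same fit, so it is no further support. Across all genes tested the median log2 difference was 0.02 under hairpin B, so the lists below are read against shares of 15.7% higher and 14.5% lower.

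Among the genes furthest apart between the lines, EPHA3, an ephrin receptor kinase, had 2515 counts in the 4 PM libraries and 2 in the 4 PE libraries, a ratio of 1154 between their CPM (95% counting interval 319 to 9538, counting error only). DTNA, a dystrobrevin of the dystrophin complex, had 1187 counts in PM and 3 in PE, a ratio of 363 (124 to 1764). In neither gene did the lines overlap. LAD1, an anchoring-filament protein of basement membrane, was at 34.3 ± 2.4 CPM in PM and 0.123 ± 0.134 CPM in PE, a log2 difference of 8.52. CCND2, a D-type cyclin that drives G1 progression, was at 21.2, 17.5, 22.1 and 18.3 CPM in PM, against 0.264, 0.183, 0.113 and 0.0277 CPM in PE (log2 7.33). TIMP3, an inhibitor of matrix metalloproteinases, was at 67.5 CPM in PM and 0.417 CPM in PE. CNTNAP2, RAPGEF5, a Rap1 exchange factor, S100A14 and COBL, an actin nucleator, had log2 differences of 5.65, 5.65, 5.49 and 5.35. On the other side stood FABP4, a fatty-acid-binding protein, at 0.052, 0.159, 0.027 and 0 CPM in PM and 17.1, 9.76, 5.71 and 20.8 CPM in PE (log2 -8.04). GDA, the guanine deaminase, was at 0.806 ± 0.205 CPM in PM and 70.0 ± 7.7 CPM in PE. MAP1B, a microtubule-associated protein, MDFIC, SYK, a tyrosine kinase, and CD40, a TNF receptor family member, had log2 differences of -5.57, -5.31, -4.75 and -4.69. ADAMTS9, a secreted metalloproteinase, FLI1, an ETS factor, and LHFPL6 followed at -4.56, -4.44 and -4.41. With the GFP hairpin the log2 differences of EPHA3, DTNA, CCND2, TIMP3, FABP4 and GDA were 7.11, 9.05, 6.80, 5.37, -7.09 and -4.90. None of these genes passed the test of a difference of hairpin B from the GFP hairpin. LAD1, CNTNAP2, RAPGEF5, S100A14 and COBL did pass, with values of 3.63, 2.36, 2.62, 2.46 and 3.15 under the GFP hairpin.

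MYC's classical targets were higher in PM with hairpin B almost as a body. Of the 49 tested, 41 were higher, 2 lower, and the median log2 difference was 0.53 (0.50 with the GFP hairpin, where 43 were higher and 0 lower). With hairpin A 43 were higher, 1 lower, and the median was 0.72. FBL, the methyltransferase of box C/D small nucleolar particles, was at 432, 442, 463 and 473 CPM in PM, against 257, 265, 226 and 248 CPM in PE, with no overlap and a log2 difference of 0.86 ± 0.06 (adjusted p = 2.0e-14). POLR3G, an RNA polymerase III subunit, was at 50.6 CPM in PM and 19.9 CPM in PE (log2 1.34). TERT, the telomerase catalytic subunit, was at 4.53 CPM in PM and 0.909 CPM in PE (log2 2.30). None of these 3 passed the test of a difference from the GFP hairpin, with log2 differences of line differences of 0.21, 0.36 and 0.16.

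Promoter windows of the list members with the largest changes show where an E-box lies, since E-boxes are MYC's known binding sequence. The sequence CACGTG, which reads the same on both strands, was searched in RefSeq windows (GRCh38.p14) of 250 bases before to 50 after each gene's start. Of 35116 windows, 2548 (7.26%) hold it, and 39 of the 49 tested targets had a window. Of those 39, 20 hold it in any of their windows (51.3%), and of the 34 called under hairpin B, 19 do (55.9%). These shares count genes while the 7.26% counts windows, so they are unlike measures. A match describes these letters and shows no binding. The windows of RRP9, FBL, MTHFD1L and PRMT3 are given 5′ to 3′ with the E-box in capitals, the members with the largest changes that hold it apart from TERT, whose window is not shown. RRP9 codes for a U3 small nucleolar protein (chr3:51941855-51942154, minus strand), FBL for fibrillarin (chr19:39846330-39846629, minus strand), MTHFD1L for a mitochondrial folate enzyme (chr6:150866236-150866535, plus strand) and PRMT3 for a ribosome-associated arginine methyltransferase (chr11:20387466-20387765, plus strand).
RRP9: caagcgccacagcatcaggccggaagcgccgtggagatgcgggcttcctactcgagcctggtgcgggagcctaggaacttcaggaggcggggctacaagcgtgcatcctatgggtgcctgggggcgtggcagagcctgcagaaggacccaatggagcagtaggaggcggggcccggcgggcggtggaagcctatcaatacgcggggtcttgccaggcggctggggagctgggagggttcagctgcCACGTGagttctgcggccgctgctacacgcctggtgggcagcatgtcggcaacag
FBL: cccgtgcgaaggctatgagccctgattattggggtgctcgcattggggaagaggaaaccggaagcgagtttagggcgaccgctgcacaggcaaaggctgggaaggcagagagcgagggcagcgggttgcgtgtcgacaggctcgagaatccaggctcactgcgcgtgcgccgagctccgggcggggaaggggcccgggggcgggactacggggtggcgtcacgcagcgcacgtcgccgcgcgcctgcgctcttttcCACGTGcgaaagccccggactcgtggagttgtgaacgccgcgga
MTHFD1L: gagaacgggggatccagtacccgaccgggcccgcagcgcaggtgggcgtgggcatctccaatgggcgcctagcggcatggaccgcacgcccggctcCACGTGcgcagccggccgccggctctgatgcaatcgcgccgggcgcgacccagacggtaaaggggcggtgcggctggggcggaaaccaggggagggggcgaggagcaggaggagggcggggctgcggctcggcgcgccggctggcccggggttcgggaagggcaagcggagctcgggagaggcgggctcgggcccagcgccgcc
PRMT3: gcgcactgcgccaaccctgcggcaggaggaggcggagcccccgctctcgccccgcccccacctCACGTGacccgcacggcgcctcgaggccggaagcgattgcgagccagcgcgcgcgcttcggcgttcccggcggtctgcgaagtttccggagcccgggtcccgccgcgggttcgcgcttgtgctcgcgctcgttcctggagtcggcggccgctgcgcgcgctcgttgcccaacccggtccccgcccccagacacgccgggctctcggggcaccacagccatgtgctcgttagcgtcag
The E-box starts 5 bases before the start in RRP9, at base 7 after it in FBL, and 154 and 187 bases before it in MTHFD1L and PRMT3. RRP9 was at 103, 120, 100 and 117 CPM in PM, against 58.9, 62.0, 53.6 and 65.8 CPM in PE. The log2 differences of RRP9, MTHFD1L and PRMT3 were 0.87, 0.68 and 0.65, and none of the 3 genes overlapped between the lines.

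The other growth lists followed the same direction. In ribosome biogenesis 44 of 49 genes were higher in PM and 0 lower (median log2 0.48), against 47 and 0 with the GFP hairpin. NOP14, a small-subunit processing factor, was at 143 CPM in PM and 78.2 CPM in PE, and POLR1B, an RNA polymerase I subunit, at 143 CPM in PM and 83.9 CPM in PE (log2 0.87 and 0.77). Of the mitochondrial ribosome and chaperone genes 29 of 31 were higher, among them TRAP1, a mitochondrial HSP90 (log2 0.83), and GRPEL1, a cofactor of mitochondrial HSP70 (0.78). In oxidative phosphorylation 35 of 54 were higher and 0 lower, with smaller steps: CYCS, cytochrome c, had a log2 difference of 0.59 and NDUFB10, a complex I subunit, of 0.45. Nucleotide, one-carbon and polyamine synthesis had 26 of 35 higher and 1 lower, with PSAT1 of the serine pathway at 0.81 and DHODH of pyrimidine synthesis at 0.80. Of 32 aminoacyl-tRNA synthetases and translation factors 25 were higher and 1 lower. GARS1, the glycyl-tRNA synthetase, stood out at 1321 ± 121 CPM in PM and 197 ± 12 CPM in PE (log2 2.75), whereas EEF1E1, an auxiliary subunit of the synthetase complex, differed by 0.59. For GARS1 the log2 difference of hairpin B from the GFP hairpin was -0.28 in PM and -0.04 in PE, so its gap was also there with the GFP hairpin. EEF1A2, a translation elongation factor of muscle and nerve, was the 1 that was lower (log2 -2.45).

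**Figure D2:**
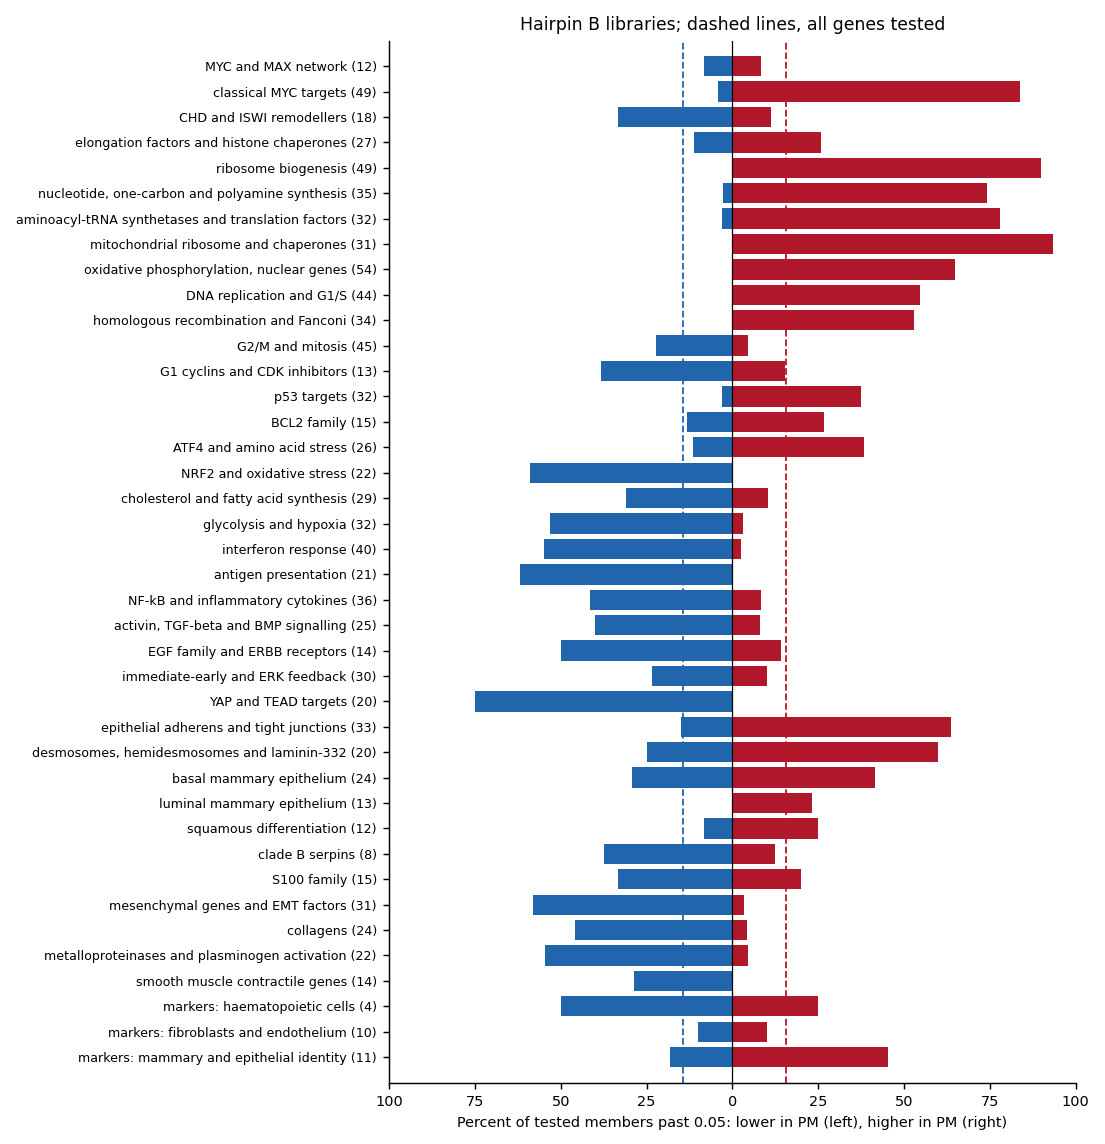
Share of tested members (number in brackets) of each of 40 gene lists that passed an adjusted p of 0.05 between PM and PE with hairpin B: lower in PM to the left, higher in PM to the right, in percent. Dashed lines mark the shares over all genes tested, 14.5% lower and 15.7% higher; the growth lists reach far right of theirs and the YAP and TEAD targets far left.

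Replication and repair genes were higher in PM, mitotic genes were not. Of 44 DNA replication and G1/S genes 24 were higher and 0 lower with hairpin B. MCM2, a subunit of the replicative helicase, was at 141 ± 7 CPM in PM and 97.9 ± 16.2 CPM in PE, and TIPIN and PRIM1, of the fork protection complex and primase, had log2 differences of 0.66 and 0.61. With the GFP hairpin 27 were higher, and 17 without its shallowest library, PE replicate 1. Of 34 homologous recombination and Fanconi genes 18 were higher, against 10 with hairpin A and 6 with the GFP hairpin, and no member passed the test of the difference of hairpin B from either. RBBP8, the end-resection factor CtIP, had a log2 difference of 0.65 and XRCC2, a recombination factor, of 0.61. RAD51B, of the same pathway, was at 0.70 with an adjusted p of 0.027, which left the threshold when any of 6 of the 8 libraries was left out (adjusted p 0.062 to 0.085). In the G2/M and mitosis list 2 of 45 were higher and 10 lower, or 1 and 7 without PM replicate 3. With the GFP hairpin 3 were higher and 4 lower (2 and 8 without PE replicate 1), and with hairpin A 2 and 21. Among the lower genes KIF20A, a cytokinesis kinesin, was at 188 CPM in PM and 274 CPM in PE, and ANLN, anillin, at 202 CPM in PM and 289 CPM in PE. MAD2L1, a spindle checkpoint protein, was higher in PM (log2 0.38).

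Cell-cycle inhibitors and p53 targets moved in part. Of 13 G1 cyclins and CDK inhibitors tested 2 were higher in PM, CCND2 and CDK4 (log2 0.32), and 5 lower, among them CDKN2C, an inhibitor of CDK4 and CDK6 (log2 -0.74). CDKN1A, the p21 inhibitor, was at 517 ± 123 CPM in PM and 462 ± 88 CPM in PE, a log2 difference of 0.16 (adjusted p = 0.52). Of 32 p53 targets 12 were higher and 1 lower, against 5 and 4 with the GFP hairpin and 24 and 2 with hairpin A. FDXR, a mitochondrial electron carrier, was at 110 CPM in PM and 62.7 CPM in PE (log2 0.81), and GADD45A, a growth-arrest gene, at 50.2 CPM in PM and 30.9 CPM in PE (log2 0.70). The GADD45A difference was larger than with the GFP hairpin by 0.68 on the log2 scale (adjusted p = 0.0021). GDF15, a stress cytokine, was at 153, 158, 205 and 88.7 CPM in PM, against 86.0, 79.2, 104 and 58.7 CPM in PE; the groups overlapped, and its adjusted p of 0.015 became 0.068 without PM replicate 3 and 0.069 without PE replicate 4. In the BCL2 family, the death-promoting BBC3, BIK and HRK were higher in PM (log2 0.65, 1.55 and 2.88), and the survival gene BCL2L1 was lower (-0.45). MCL1, also a survival gene, was higher by 0.18 with an adjusted p of 0.042 that left the threshold without 6 of the 8 libraries taken singly (adjusted p 0.055 to 0.35).

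Many epithelial junction genes were higher in PM with hairpin B, and with hairpin A in like numbers. Of 33 adherens and tight junction genes tested 21 were higher in PM and 5 lower, with a median log2 difference of 1.01, against 20, 6 and 1.03 with hairpin A and 17, 4 and 0.43 with the GFP hairpin. For 12 of the 33 the PM over PE difference was larger under hairpin B than with GFP, and for 0 smaller, against 306 (1.47%) larger and 204 (0.98%) smaller among all genes tested, 510 (2.45%) in all. Against hairpin A it was larger for 5 and smaller for 5. CDH1, E-cadherin (chr16:68737292-68835537), was at 26.5, 30.98, 25.8 and 23.9 CPM in PM, against 0.158, 0.687, 0.251 and 0.138 CPM in PE. The PM libraries were all far above the PE libraries, with a log2 difference of 6.74 ± 0.48 (adjusted p = 1.4e-09). With the GFP hairpin CDH1 averaged 26.02 CPM in PM and 9.22 CPM in PE (log2 1.63), so the line difference was larger under hairpin B by 5.11 (adjusted p = 2.4e-05). The gap widened on the PE side: the log2 difference of hairpin B from the GFP hairpin was 0.04 in PM (adjusted p = 0.95) and -5.07 in PE (adjusted p = 1.5e-07). The PE libraries with the GFP hairpin were uneven, with CDH1 at 13.8, 11.05, 8.29 and 3.75 CPM in replicates 1 to 4. In the same libraries the collagen gene COL6A2 rose, at 11.4, 29.3, 49.8 and 69.6 CPM. The cause of this trend was not tested. Leaving out single libraries gave 4.82 to 5.51 for the CDH1 difference from GFP.

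ESRP1, the splicing factor that sets epithelial isoforms (chr8:94641174-94707466), showed the same arrangement. It was at 15.0, 16.3, 14.8 and 14.4 CPM in PM, against 0.237, 0.138, 0.138 and 0.0692 CPM in PE with hairpin B, and at 17.4 CPM in PM and 7.49 CPM in PE with the GFP hairpin. The difference between the line differences was 5.42 (adjusted p = 9.6e-10). In PE with the GFP hairpin ESRP1 also fell over replicates 1 to 4, at 12.2, 8.41, 5.47 and 3.85 CPM. It fell in PE with hairpin A as well, at 2.70, 1.79, 1.35 and 1.20 CPM. MAL2, an apical transport protein, was at 67.0 CPM in PM and 0.982 CPM in PE (difference from GFP 4.58), and LAD1 differed from its GFP value by 4.89. CRB3, an apical polarity protein, was at 2.21 CPM in PM and 0.0483 CPM in PE, and its line difference was 4.00 larger than with GFP. Under hairpin A the line differences of CDH1, ESRP1 and MAL2 were 3.06, 3.04 and 3.09, each smaller than under hairpin B (adjusted p = 0.00082, 2.1e-06 and 0.00015). EPCAM, an epithelial adhesion molecule, was at 92.8 ± 9.8 CPM in PM and 9.98 ± 2.25 CPM in PE (log2 3.23), a difference from the GFP hairpin of 1.00 that missed the threshold (adjusted p = 0.061).

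**Figure D3:**
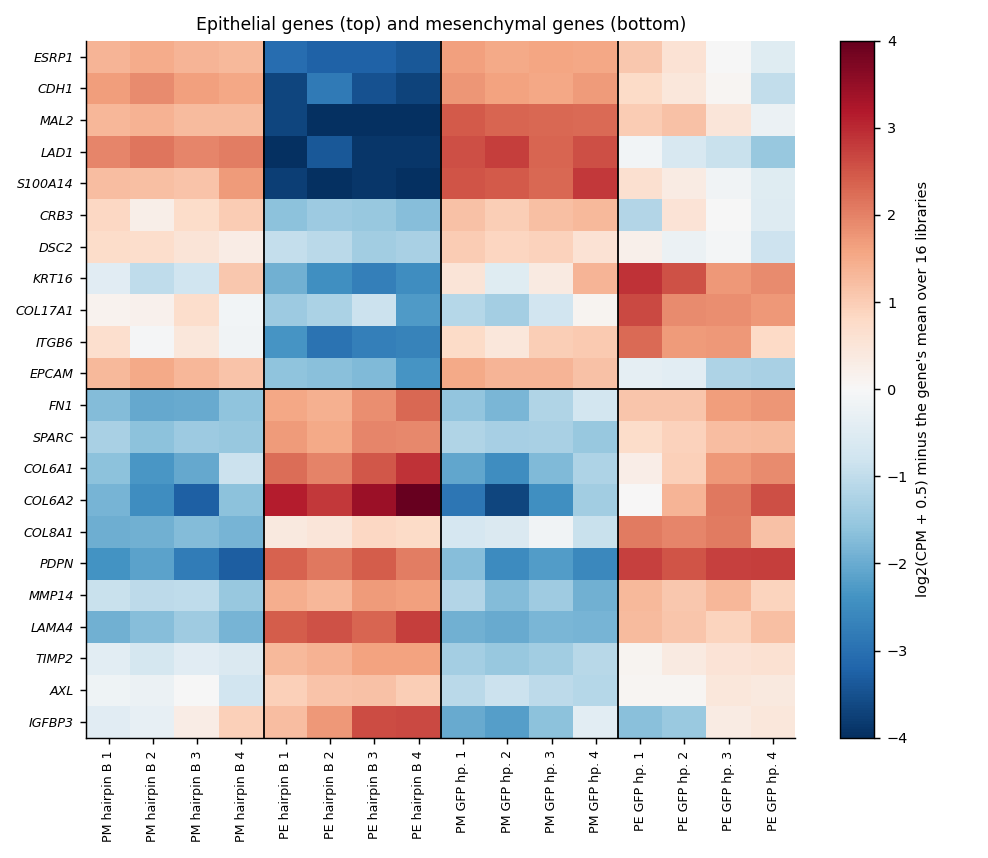
Level of 11 epithelial genes (top) and 11 mesenchymal or matrix genes (bottom) in each of the 16 libraries with hairpin B and the GFP hairpin, as log2(CPM + 0.5) minus the gene's mean over those 16 libraries; red is above the mean and blue below. ESRP1, CDH1, MAL2, LAD1 and S100A14 are low in the 4 PE libraries with hairpin B and above them in the 4 with the GFP hairpin.

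Of 24 basal mammary genes 10 were higher in PM and 7 lower with hairpin B, against 2 and 10 with the GFP hairpin and 4 and 14 with hairpin A. Their median log2 differences were 0.66, -0.45 and -0.70 in that order, and the difference from the GFP hairpin was past 0.05 and positive for 8 of 24, and negative for 0. COL17A1, a hemidesmosome collagen, was at 8.77, 9.07, 13.4 and 7.28 CPM in PM, against 2.56, 3.02, 4.16 and 1.27 CPM in PE, while with the GFP hairpin it averaged 4.79 CPM in PM and 35.1 CPM in PE. Its log2 difference was thus 1.81 with hairpin B and -2.83 with the GFP hairpin, with opposite signs (difference 4.64, adjusted p = 2.2e-05). ITGB6, an epithelial integrin subunit, averaged 7.56 CPM in PM and 0.547 CPM in PE with hairpin B, and 11.4 CPM in PM and 21.3 CPM in PE with GFP (log2 3.78 and -0.85). The log2 difference of hairpin B from the GFP hairpin was 1.00 in PM and -3.64 in PE for COL17A1, and -0.58 and -5.22 for ITGB6. The 7 lower basal members are not named in this paragraph.

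KRT16, a stress keratin, was at 4.07, 2.60, 3.17 and 12.7 CPM in PM, against 1.16, 0.641, 0.452 and 0.636 CPM in PE with hairpin B, with PM replicate 4 above the other 3 PM libraries. With the GFP hairpin it averaged 8.95 CPM in PM and 31.5 CPM in PE, and the difference between the line differences was 4.80. KRT17 and CDH3, P-cadherin, had log2 differences of 2.30 and 1.89 with hairpin B and of -0.10 and 0.13 with the GFP hairpin. S100A2, a calcium-binding protein of basal cells, was at 334 ± 24 CPM in PM and 109 ± 19 CPM in PE (log2 1.62). KRT14 (log2 1.15, adjusted p = 0.14) did not pass under hairpin B, at 1.18 CPM in PM and 0.529 CPM in PE, and with the GFP hairpin averaged 5.59 CPM in PM and 39.4 CPM in PE. KRT5, the other basal keratin, was at 1317 ± 150 CPM in PM and 830 ± 190 CPM in PE (log2 0.67, adjusted p = 0.014, or 0.070 without PE replicate 4). The log2 difference of hairpin B from the GFP hairpin was -2.63 in PM and -5.03 in PE for KRT17, and -2.28 and -6.22 for KRT14. For KRT16 it was -0.66 and -5.46, and for S100A2 -0.64 and -2.03. For CDH3 it was 0.58 and -1.17, and for KRT5 0.13 and -0.64. Of 20 desmosome, hemidesmosome and laminin-332 genes 12 were higher and 5 lower, against 7 and 8 with hairpin A and 5 and 7 with the GFP hairpin. DSG3, DSC3 and DSC2, desmosomal cadherins, had log2 differences of 2.99, 2.16 and 1.85 with hairpin B, and 1.21, 2.88 and 1.15 with the GFP hairpin. KRT6A, KRT6B and KRT6C are near-identical, and how their reads were divided is uncertain.

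Other epithelial lists were thinner. Of 13 luminal genes tested 3 were higher and 0 lower. SLPI, a secreted protease inhibitor, was at 30.8 CPM in PM and 13.8 CPM in PE (log2 1.17), and KRT18, a simple keratin, was higher by 0.25. AGR2, a luminal disulfide isomerase, had 96 counts in PM and 0 in PE, at least 29.4-fold higher in PM at a floor of 3 counts over the group. Of those 96 counts 49 were in PM replicate 3. Of 12 squamous genes tested ABCA12, a lipid transporter, and TGM1, a transglutaminase, were higher in PM (log2 2.52 and 1.63). Of 8 clade B serpins, SERPINB5, maspin, was higher (0.48) and 3 were lower, among them SERPINB1 (-0.30, adjusted p = 0.031); none of the 3 stayed past the threshold without PM replicate 3. In the S100 family 3 of 15 were higher and 5 lower: S100P at 9.99 CPM in PM and 2.46 CPM in PE, S100A10, a partner of annexin A2, at 156 CPM in PM and 268 CPM in PE. S100A8 and S100A9, subunits of calprotectin, did not differ past the threshold with hairpin B (log2 -0.55 and -0.03), and were lower in PM by 4.09 and 2.88 with the GFP hairpin.

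More mesenchymal and matrix genes were lower than higher in PM with every hairpin. Of 31 mesenchymal genes and EMT factors 18 were lower in PM and 1 higher with hairpin B, against 15 and 2 with the GFP hairpin and 22 and 2 with hairpin A. FN1, fibronectin, was at 53.7, 43.2, 43.6 and 58.2 CPM in PM, against 525, 476, 648 and 889 CPM in PE, a log2 difference of -3.67 ± 0.28 (adjusted p = 5.5e-09). SPARC, a collagen-binding matrix protein, was at 18.6 ± 2.0 CPM in PM and 184 ± 26 CPM in PE, and its difference was 0.88 further from 0 than with the GFP hairpin (adjusted p = 0.00094). The lines did not overlap in either gene. CDH11, a mesenchymal cadherin, had 1 count in PM and 67 in PE, a ratio of PM over PE of 0.0137 (counting interval 0.000342 to 0.079), and WNT5B, a WNT ligand, had 1 count in PM and 251 in PE.

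Collagens had 11 of 24 lower and 1 higher. COL6A2 was at 2.73, 1.59, 0.701 and 3.23 CPM in PM, against 103, 81.6, 125 and 206 CPM in PE (log2 -5.97), and its partner COL6A1 was at 19.0 CPM in PM and 321 CPM in PE (-4.08). COL8A1, a short-chain collagen, had a log2 difference of -2.61. PDPN, podoplanin, was at 0.675, 0.888, 0.378 and 0.125 CPM in PM, against 30.99, 26.1, 32.7 and 25.1 CPM in PE. LAMA4, a laminin chain of mesenchymal basement membranes, was at 1.65 CPM in PM and 40.03 CPM in PE, and its difference of -4.59 was further from 0 than with the GFP hairpin by 1.19 (adjusted p = 0.0008). Of 22 metalloproteinase and plasminogen activation genes 12 were lower and 1, TIMP3, higher. MMP14, the membrane collagenase, was at 17.9 CPM in PM and 114 CPM in PE, and TIMP2, which takes part in MMP14's activation of pro-MMP2, at 70.3 CPM in PM and 287 CPM in PE (log2 -2.68 and -2.03). Of 14 smooth muscle contractile genes 4 were lower, with MYLK, the myosin light chain kinase, at -2.07 and TPM1, a tropomyosin, at -0.71.

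Growth-factor and YAP pathway genes were lower in PM as well. Of 20 YAP and TEAD targets 15 were lower and 0 higher with hairpin B (median log2 -0.58), against 15 and 0 with hairpin A (median -0.61) and 6 and 1 with the GFP hairpin (median -0.13; 0 higher without PE replicate 1 of the GFP libraries). For 6 of the 20 the difference of hairpin B from the GFP hairpin was past 0.05 and negative, and for 1 that from hairpin A. AXL, a receptor kinase, was at 62.3 CPM in PM and 158 CPM in PE, and IGFBP3, an IGF-binding protein, at 24.1 ± 11.5 CPM in PM and 94.0 ± 41.6 CPM in PE. TGFB2, the ligand TGF-beta 2, was at 10.3 CPM in PM and 30.5 CPM in PE with hairpin B, and at 13.7 CPM in PM and 13.8 CPM in PE with the GFP hairpin (difference -1.51, adjusted p = 5.8e-05). Of 25 activin, TGF-beta and BMP genes 10 were lower and 2 higher. LTBP1, which stores latent TGF-beta in the matrix, had a log2 difference of -2.17. Of 14 EGF family genes 7 were lower, among them the ligand EREG (20.0 CPM in PM and 106 CPM in PE) and the receptor EGFR (113 CPM in PM and 154 CPM in PE). ERBB3, a neuregulin receptor, was higher in PM (log2 2.72), against -0.38 with the GFP hairpin (difference 3.10, adjusted p = 0.00048). In the immediate-early and ERK feedback list 7 of 30 were lower and 3 higher; DUSP4, an ERK phosphatase, and KLF4 were lower (-1.39 and -1.31) and SPRY1, a feedback inhibitor, was higher (1.27).

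Inflammatory, interferon and antigen presentation genes were lower in PM with all 3 hairpins. Of 36 NF-kB and cytokine genes 15 were lower and 3 higher with hairpin B, against 14 and 0 with the GFP hairpin and 22 and 0 with hairpin A. IL1B, interleukin-1 beta, was at 18.9, 23.3, 22.6 and 11.6 CPM in PM, against 131, 185, 132 and 122 CPM in PE (log2 -2.90). IL6 and IL1A had log2 differences of -2.62 and -1.96. IL1RN, the receptor antagonist of interleukin-1, had 117 counts in PM and 0 in PE, at least 35.8-fold higher in PM, and was lower in PM with the GFP hairpin (log2 -2.67). Of 40 interferon response genes 22 were lower and 1 higher (0 higher without PM replicate 3), against 18 and 1 with the GFP hairpin and 29 and 2 with hairpin A, with OAS1, an antiviral enzyme, at 2.92 ± 1.39 CPM in PM and 14.9 ± 1.8 CPM in PE, and SAMD9L at 1.28 CPM in PM and 6.47 CPM in PE. Of 21 antigen presentation genes 13 were lower and 0 higher, against 14 and 1 with the GFP hairpin and 14 and 2 with hairpin A. PSMB9, an immunoproteasome subunit, was at 16.7 CPM in PM and 69.8 CPM in PE (log2 -2.05), and HLA-B at 80.5, 78.7, 102 and 148 CPM in PM, against 320, 287, 374 and 575 CPM in PE. Reads of HLA class I genes can be shared between near-identical genes and alleles, so the HLA-B value is uncertain.

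Metabolic stress genes gave smaller groups. Of 32 glycolysis and hypoxia genes 17 were lower in PM and 1 higher with hairpin B (10 lower without PM replicate 3), against 15 and 2 with hairpin A and 4 and 2 with the GFP hairpin. The difference of hairpin B passed for 1 member against GFP and for 0 against hairpin A. NDRG1, a hypoxia-induced gene, was at 99.2, 76.5, 130 and 165 CPM in PM, against 284, 249, 552 and 490 CPM in PE, and ADM, adrenomedullin, and BNIP3L, a mitophagy receptor, had log2 differences of -1.71 and -1.42. Of 22 NRF2 genes 13 were lower and 0 higher, against 10 and 3 with hairpin A and 8 and 3 with the GFP hairpin (1 higher without PE replicate 1 of the GFP libraries). ABCC2, an export pump, was at 89.0 CPM in PM and 196 CPM in PE, HMOX1, heme oxygenase, at 13.9 CPM in PM and 31.5 CPM in PE, and AKR1C1, a ketosteroid reductase whose reads can be shared with near-identical family members, at 118 CPM in PM and 339 CPM in PE. Of 29 cholesterol and fatty acid genes 9 were lower (5 without PM replicate 3) and 3 higher. With the GFP hairpin 1 was lower and 7 higher, and with hairpin A 9 were lower and 7 higher. The difference of hairpin B from the GFP hairpin was past 0.05 and negative for 3 of them (2 without PM replicate 3), and positive for 0. INSIG1, which restrains sterol synthesis, was at 42.4 CPM in PM and 85.5 CPM in PE (log2 -1.01), while with the GFP hairpin the lines were at 34.4 CPM in PM and 34.5 CPM in PE, and with hairpin A at 54.5 CPM in PM and 93.1 CPM in PE (log2 -0.77). FASN, the fatty acid synthase, was higher (0.42). Of 26 ATF4 genes 10 were higher and 3 lower: STC2 at 125 CPM in PM and 214 CPM in PE, VLDLR at 3.32 CPM in PM and 10.8 CPM in PE, and ASNS, the asparagine synthetase, higher with a log2 difference of 1.66 (adjusted p = 0.021, and 0.055 to 0.094 without any 1 of 3 libraries, PM replicate 1, PE replicate 1 or PE replicate 4).

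Among chromatin genes, SMARCA1, an ISWI remodeller ATPase, differed between the lines more with hairpin B than with the GFP hairpin, and was also lower in PM with hairpin A. It was at 6.79, 7.10, 5.77 and 5.15 CPM in PM, against 38.4, 40.05, 42.6 and 33.1 CPM in PE, and with the GFP hairpin averaged 3.11 CPM in PM and 5.40 CPM in PE. The log2 difference was -2.64 ± 0.14 with hairpin B and -0.81 with the GFP hairpin (difference -1.83, adjusted p = 1.6e-07). With hairpin A it was -2.30 (adjusted p = 3.8e-15), and the difference of hairpin B from hairpin A, -0.33 ± 0.19, did not pass (adjusted p = 0.41). Of 18 CHD and ISWI remodellers 2 were higher in PM and 6 lower, with CHD7 at 29.2 ± 6.7 CPM in PM and 16.9 ± 2.9 CPM in PE, CHD3 of the NuRD complex at 156 CPM in PM and 240 CPM in PE, and CHD6 at 31.4 CPM in PM and 41.9 CPM in PE. Of 27 elongation factors and histone chaperones 7 were higher and 3 lower (1 lower without PM replicate 3). SSRP1 and SUPT16H, the subunits of the histone chaperone FACT, were both higher, by log2 0.44 and 0.36.

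**Figure D4:**
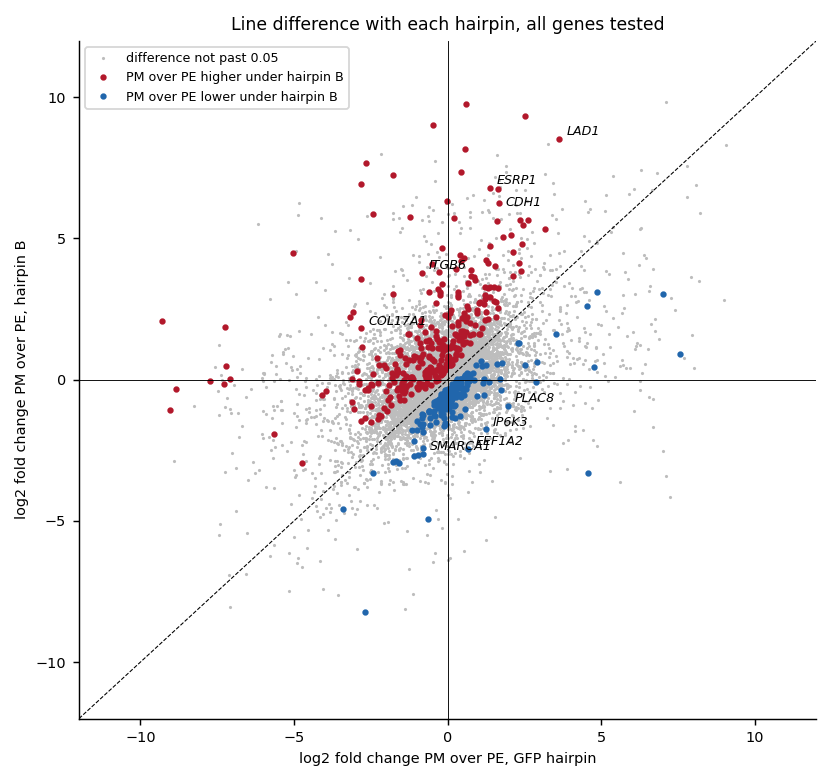
Log2 fold change of PM over PE with hairpin B (vertical) against the same with the GFP hairpin (horizontal) for all 20820 genes tested; the dashed line marks equality. Red and blue points are the 306 and 204 genes whose line difference was higher or lower under hairpin B at an adjusted p of 0.05; CDH1 and ESRP1 lie above the dashed line in the upper right and COL17A1 in the upper left.

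The 510 genes whose line difference changed with hairpin B fell into a few kinds. Of the 306 that were relatively higher in PM, 99 were higher in PM with hairpin B and not called with the GFP hairpin, 66 were higher with both, 80 were lower with GFP and not called with hairpin B, 35 were higher with hairpin B and lower with GFP, 25 were lower with both and 1 was called with neither. Of the 204 that were relatively lower, 87 were lower in PM with hairpin B alone, 48 lower with both, 43 higher with GFP alone, 12 lower with hairpin B and higher with GFP, and 14 were higher with both. PLAC8, at 6.89 CPM in PM and 13.1 CPM in PE with hairpin B and 1.63 CPM in PM and 0.393 CPM in PE with GFP, and IP6K3, an inositol phosphate kinase, at 6.02 CPM in PM and 20.4 CPM in PE with hairpin B and 2.25 CPM in PM and 0.852 CPM in PE with GFP, were among these 12. EEF1A2 was 3.12 lower than with GFP. NRG1, an ERBB3 ligand, did not pass with hairpin B (log2 0.51) and was higher in PM with GFP (2.51). HBA2, an alpha-globin gene, was at 22.6 CPM in PM and 2.56 CPM in PE, a smaller difference than with GFP (by -1.74, adjusted p = 0.044), and this left the threshold for 15 of the 16 libraries left out singly. HBA2 is near-identical to HBA1, at 18.2 CPM in PM and 2.24 CPM in PE, so neither value is certain.

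Against hairpin A, 1044 genes (5.01%) had another line difference under hairpin B, 613 (2.94%) higher and 431 (2.07%) lower. The 2 comparisons of hairpin B with GFP and with A use the same hairpin B libraries. For 275 of the 613 PM was lower with both hairpins, and for 205 it was lower with hairpin A and not called with hairpin B and for 27 it was higher with hairpin B and lower with hairpin A. Basal mammary genes were relatively higher for 13 of 24 and lower for 0. KRT14 averaged 1.18 CPM in PM and 0.529 CPM in PE with hairpin B, against 1.28 CPM in PM and 17.3 CPM in PE with hairpin A. S100A8 was at 6.43 CPM in PM and 9.53 CPM in PE with hairpin B, and 2.26 CPM in PM and 73.0 CPM in PE with hairpin A (difference 4.48). IL1RL1, the interleukin-33 receptor, was lower in PM by 1.93 with hairpin B and by 6.44 with hairpin A. TP53I11 and FLRT3, an adhesion protein, had line differences of 0.04 and 3.91 with hairpin B and -4.20 and -0.05 with hairpin A. Of the 431 relatively lower genes 212 were higher in PM with both hairpins. GRIN2C, a glutamate receptor subunit, was at 4.18 CPM in PM and 1.71 CPM in PE with hairpin B and 6.09 CPM in PM and 0.251 CPM in PE with hairpin A, and BMP6, LY6D and VIPR1 had differences of -2.77, -2.70 and -2.56. The VIPR1 difference (adjusted p = 0.041) left the threshold for 12 of the 16 libraries left out singly. GDA was lower in PM by 6.50 with hairpin B and by 4.04 with hairpin A.

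**Figure D5:**
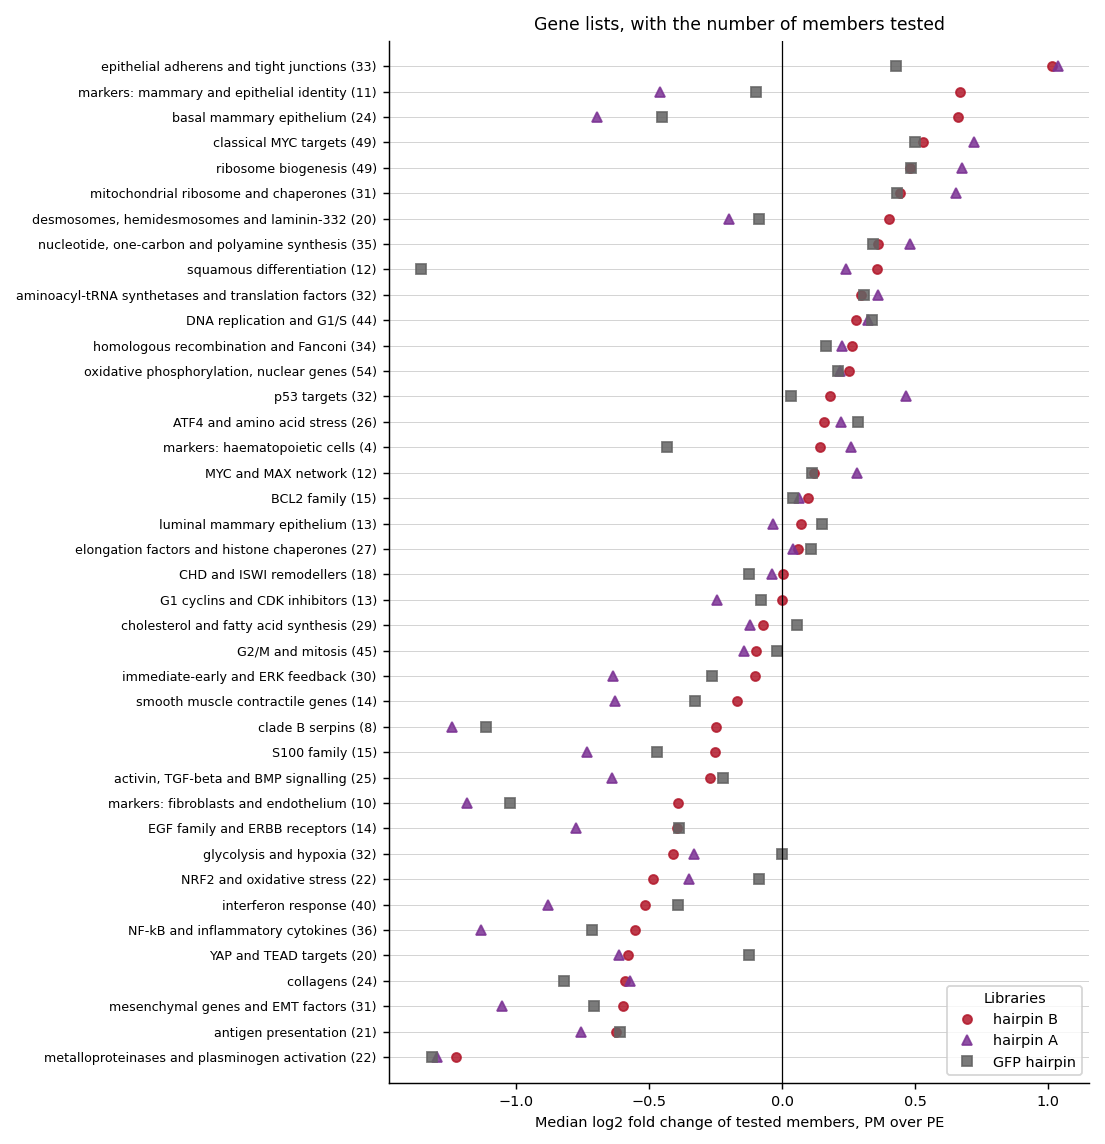
Median log2 fold change of PM over PE over the tested members (number in brackets) of 40 gene lists, with hairpin B (circles), hairpin A (triangles) and the GFP hairpin (squares). The basal mammary list lies at 0.66 with hairpin B, -0.70 with hairpin A and -0.45 with the GFP hairpin, while the classical MYC targets lie between 0.50 and 0.72 with all 3.

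Markers of other cell types were also measured. Of 12 haematopoietic markers 4 were tested; CD3D and HBB had 0 counts in all 8 hairpin B libraries, and PTPRC, the pan-leukocyte CD45, had 13 counts in PM and 7 in PE. Lower in PM were CD14 (11.2 CPM in PM, 18.4 CPM in PE) and CD68 (29.9 CPM in PM, 51.1 CPM in PE), which many cell types express, and CSF1R was higher (2.99 CPM in PM, 1.47 CPM in PE). The summed level of that list was 39.5 to 48.1 CPM in PM and 58.2 to 87.8 CPM in PE. Of 12 fibroblast and endothelial markers 10 were tested, with a summed level of 38.1 to 68.4 CPM in PM and 31.8 to 50.1 CPM in PE. LUM, a matrix proteoglycan, was higher in PM (log2 2.13), PECAM1, an endothelial adhesion molecule, was lower (-2.10), and DCN, decorin, was at 29.6 ± 13.6 CPM in PM and 20.0 ± 6.0 CPM in PE (adjusted p = 0.36). Mammary markers summed to 3836 to 4449 CPM in PM and 3211 to 3884 CPM in PE. The part of these markers in the matrix and inflammatory results was not tested, and in bulk libraries fewer cells of a type and less RNA per cell cannot be told apart.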

How the data were processed

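Polyadenylated RNA was measured by stranded RNA sequencing in 24 libraries, 4 in each of 6 groups, and 8 of them (PM and PE with hairpin B) form the comparison reported. Per the submitters' processing notes, the authors used FastQC, Trim Galore 0.4.0, HISAT2 2.2.1 and featureCounts with GRCh38, and deposited raw counts per gene for 59251 gene symbols; no source used here names the annotation or strand setting behind the counting, so reads of overlapping and antisense genes may be shared. RefSeq (GRCh38.p14) gave names and coordinates: 57842 symbols matched directly, 370 by synonym, and 1039 did not match.

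Counts were fitted in R 4.3.3 with edgeR 4.0.16: filterByExpr over the 6 groups kept 20820 genes (17236 had no count), TMM scaling, 1 mean per group over all 24 libraries, which share 1 estimate of the spread, a robust quasi-likelihood test and Benjamini-Hochberg adjustment over all tested genes, called at 0.05. SE is the log2 difference over the square root of F. Median biological CV was 18.96%. Counting intervals are exact at 95% and, like the floor of 3 counts, cover counting error only. Within the hairpin B groups, the chi-square of each replicate pair was 11.4 to 48.2 times its degrees of freedom, so each library was kept as a replicate of its own.

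Members and the 40 gene lists (1111 entries, 1109 found) were chosen with earlier results of these data known. Named genes are CHD1, MYC, the 12 largest changes each way under hairpin B among protein-coding genes past the threshold at 5 CPM or more without overlap, the 6 largest each way for both differences of line differences, up to 4 called members per list, and any member of lists of at most 18 genes. PRMT3 and HBA1, and KRT6A, KRT6B and KRT6C, named without values, were added after their values were seen. Alternatives were DESeq2 1.42.0 size factors and Wald test, library sizes alone, limma-voom 3.58.1, no filter, 5 CPM in 4 libraries, a replicate block, the groups of the contrast alone, a 2-fold change, and leaving out each library. The fit was tested on simulated data. A few genes that the naming rule reaches are not reported here.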

Additional observations from a re-analysis of the deposited data

Results flagged for a closer look

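Within the 2 groups of 4 libraries with hairpin B, 18 of 267 gene-and-group combinations, of genes at a mean of at least 1 CPM, had 1 library set far apart from the other 3; chance alone flags about 1 in 20 such groups. PM replicate 1 stood apart in FASN (985 CPM against 881 to 896 CPM). PM replicate 2 stood apart in LY6D (3.62 CPM against 5.85 to 6.21 CPM), RAD51B (2.95 CPM against 5.39 to 5.67 CPM), RBBP8 (94.5 CPM against 76 to 78.4 CPM), SAMD9L (2.5 CPM against 0.793 to 0.985 CPM). PM replicate 4 stood apart in KRT16 (12.7 CPM against 2.6 to 4.07 CPM), MTHFD1L (139 CPM against 151 to 152 CPM), NDUFB10 (158 CPM against 141 to 144 CPM), S100A10 (196 CPM against 141 to 146 CPM), S100A14 (158 CPM against 108 to 114 CPM). PE replicate 1 stood apart in LY6D (0.896 CPM against 1.38 to 1.42 CPM), PECAM1 (9.67 CPM against 5.16 to 5.36 CPM), S100A9 (55 CPM against 17.6 to 24 CPM), TPM1 (86.4 CPM against 107 to 110 CPM). PE replicate 2 stood apart in TGM1 (3.76 CPM against 1.84 to 1.96 CPM). PE replicate 3 stood apart in MCL1 (608 CPM against 662 to 668 CPM), NDUFB10 (102 CPM against 109 to 110 CPM), PSMB9 (83.8 CPM against 64.4 to 66.3 CPM). No gene set PM replicate 3 or PE replicate 4 apart by this measure. It looked only at named genes at that level, so it does not cover the low-count genes seen only in PM replicate 3.

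The PM over PE difference of IL1RN, AGR2, ESRP1, CDH1, LAD1, KRT16, COL17A1, ITGB6 and MAL2 was higher with hairpin B than with the GFP hairpin, by log2 differences of 10.34, 9.03, 5.42, 5.11, 4.89, 4.80, 4.64, 4.63 and 4.58. Next were CRB3, KRT14, IL1RL1, FLRT3, S100A8, CNTNAP2, TP53I11, ERBB3 and S100A14, at 4.00, 3.93, 3.71, 3.65, 3.54, 3.29, 3.15, 3.10 and 3.03. RAPGEF5, S100A9, KRT17, DCN, COBL, DSG3, CDH3 and S100A2 followed, at 3.03, 2.84, 2.40, 2.26, 2.196, 1.77, 1.76 and 1.39. Further down came SLPI, GADD45A, SERPINB1, SERPINB5 and MCL1, at 1.20, 0.68, 0.66, 0.49 and 0.39. The PM over PE difference of EEF1A2, IP6K3, PLAC8, NRG1, SMARCA1, HBA2, TGFB2, LAMA4 and INSIG1 was lower with hairpin B than with the GFP hairpin, by log2 differences of -3.12, -2.998, -2.88, -1.99, -1.83, -1.74, -1.51, -1.19 and -1.03. Next were SPARC, STC2 and MYC, at -0.88, -0.62 and -0.40. 

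The PM over PE difference of IL1RN, TP63, KRT14, IL1RL1, S100A8, TP53I11, KRT16, FLRT3 and ITGB6 was higher with hairpin B than with hairpin A, by log2 differences of 6.82, 6.28, 4.81, 4.51, 4.48, 4.23, 4.20, 3.96 and 3.89. Next were ESRP1, CDH1, DCN, S100A9, MAL2, COL17A1, CRB3 and KRT17, at 3.74, 3.67, 3.61, 3.58, 3.17, 2.89, 2.56 and 2.08. LAD1, IL1A, S100A14, S100A2, EREG, SLPI, KRT5, SERPINB1 and MCL1 followed, at 2.03, 1.69, 1.59, 1.47, 1.24, 1.20, 1.13, 0.90 and 0.83. Further down came KRT7, MMP14, GARS1 and SERPINB5, at 0.70, 0.68, 0.39 and 0.38. The PM over PE difference of GRIN2C, BMP6, EEF1A2, LY6D, VIPR1, GDA, HBA2, HBA1 and IP6K3 was lower with hairpin B than with hairpin A, by log2 differences of -3.30, -2.77, -2.73, -2.70, -2.56, -2.46, -2.38, -2.35 and -2.29. Next were ABCA12, MDFIC, GDF15, FDXR, BBC3, TGFB2, MYC, SPARC and FASN, at -1.93, -1.82, -1.62, -1.24, -1.02, -0.91, -0.62, -0.55 and -0.40. POLR1B and MTHFD1L followed, at -0.38 and -0.32. All of these differences passed an adjusted p of 0.05 in edgeR's quasi-likelihood test of the difference itself. The fitted values of IL1RN and AGR2, which had 0 counts in PE with hairpin B, depend on the prior count and are no bound. The TP63 value rests on 31 counts in PM with hairpin B, 18 of them in replicate 3, and 2 counts in PE.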

How the results depend on the processing

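Under hairpin B the number of genes called ranged from 5448 to 6037 when 1 library was left out, against 6274, with the GFP hairpin from 4297 to 4938 against 5309, and with hairpin A from 7631 to 8141 against 8309. For the difference from the GFP hairpin (510 genes) the range was 419 to 615 and for the difference from hairpin A (1044 genes) 814 to 1151. Asking for a change of at least 2-fold left 1551, 1356 and 2627 genes for the 3 line differences and 274 and 358 for the 2 differences between them. Without a filter on low counts 829 genes differed from the GFP hairpin, 495 of them among the 510. With the replicate block 1003 genes differed from the GFP hairpin and 1753 from hairpin A, and 6923 were called under hairpin B. Deviations of same-numbered PM and PE libraries correlated by 0.0341 to 0.118, over 0.1 in 2 of 4 pairs. Each of the 4 PM libraries correlated best with its own number. The serial numbers in the library names also run through all 6 groups of 1 replicate number before the next. The labels do not say whether libraries of the same number were handled together. The main fit did not take the numbers as pairs or blocks, so it leaves out any such shared handling. With library sizes alone 71.5% of the genes called against the GFP hairpin were higher, against 60.0%, and 48.0% with the replicate block. The cause of these shifts was not tested. CHD1 stayed uncalled (log2 -0.02 to 0.19) and MYC stayed called (0.45 to 0.55) without any 1 of the 8 libraries. With each of the 3 scalings 18 of the 40 lists had more members higher than lower. Of 176 named gene results, 12 changed a call under at least 1 alternative, and none of the called values changed sign. These results cover the named genes under hairpin B. For the differences from the GFP hairpin and from hairpin A they cover only the 6 largest each way. The other differences listed above were not checked in this way. Of values that did not pass, CHD1, TP53I11 (-0.27 to 0.27) and S100A9 (-0.24 to 0.46) took both signs when 1 library was left out. Leaving out PM replicate 3, chosen after seeing the data, moved glycolysis and hypoxia to 10 genes lower and G2/M and mitosis to 7. It moved cholesterol and fatty acid synthesis to 5 and clade B serpins to 0. The library with the lowest total, PE replicate 1 with the GFP hairpin, limits the precision of the GFP contrasts.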
